A study of Mus musculus with 12 samples.

Results

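The genes described here are 48 cell cycle and DNA replication genes, read at their promoters in chromatin libraries of the embryonic mouse forebrain. A gene was taken when the symbol of a promoter window was on the list, and all 48 were found, each with 1 window, among 55276 symbols. The rule itself uses no measured value. They fall into 6 roles: 13 replication licensing genes, 4 genes of the replication fork and nucleotide supply, 9 G1 and S cyclins with their kinases, 8 E2F factors and pocket proteins, 10 mitotic cyclins and kinases, and 4 chromosome and spindle proteins.

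A dividing cell commits to a new round of replication in G1, when D-type cyclins activate Cdk4 and Cdk6 and the pocket protein Rb1 is phosphorylated and lets go of the E2F factors. E2F factors then switch on cyclin E and the genes that load the MCM helicase on origins and supply nucleotides, and a later wave of genes carries the cell through mitosis. Neural progenitors along the ventricles of the forebrain divide in this way while the neurons they produce leave the cycle. Polycomb repressive complex 2 (PRC2), of which Eed is a core subunit, places H3K27me3, a mark of repressed genes, whereas H3K27ac and RNA polymerase II (RNA-Pol2) mark active promoters.

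The tissue was forebrain of untreated C57BL/6 embryos at E12.5, in days of embryonic development, either wild type or of the genotype labelled EedcKO. Each genotype gave 1 Eed library and 1 input library by X-ChIP (immunoprecipitation of cross-linked chromatin) and 4 libraries by CUT&Tag, a method that cuts DNA beside the antibody with a tethered transposase: H3K27me3, H3K27ac, RNA-Pol2 and IgG as the control. With 12 libraries and 1 for each genotype and target, none of the differences could be checked in replicates, and p-values are left out. The sources used here do not give in which cells Eed was deleted, which part of it, or how many embryos made up a library.

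The libraries held from 948955 to 3842779 reads in the promoter windows, each of which spans 2 kb around an annotated start site. At the window of the Eed gene itself, the Eed library held 121 reads in wild type and 40 in EedcKO, beside 27 and 19 of input, and a promoter count does not check a deletion. The labelled tissue was checked on wild type H3K27ac: 8 of 10 cortical progenitor markers and 6 of 8 neuron markers were at least 2-fold over IgG, with median relative log2 ratios, defined in the next paragraph, of 1.67 and 1.68. Of the markers of other cells, 0 of 6 endothelial, 0 of 6 erythroid, 1 of 6 microglia and 1 of 6 mesenchyme markers were. Of protein-coding promoters, 42.9% passed the same call. Wild type RNA-Pol2 was 2-fold over IgG at 5 of 10 progenitor and 3 of 8 neuron markers (protein-coding 27.3%). The progenitor markers also held wild type H3K27me3, 2-fold over IgG at 9 of 10 with a median of 3.64, as did 3 of 8 neuron markers (protein-coding 33.1%). The library labelled EedcKO H3K27ac was more like wild type H3K27me3 than wild type H3K27ac at these genes, so both EedcKO histone libraries are named as labelled, and their calls are given both ways. In whole tissue, fewer cells with a mark and less of it per cell cannot be told apart, nor can marks that lie on the same allele be told from marks of different cells.

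Ratios between libraries are given as relative log2 ratios. Counts were scaled to RPKM, that is by the window length and by the library's total over promoters, 0.5 was added, and the median log2 ratio of all tested promoters was taken off, so that 0 is the median promoter and 1 is a 2-fold rise over it. Between EedcKO and wild type, the median taken off was -0.41 in RNA-Pol2, 0.88 in Eed, 0.85 in H3K27me3 and -1.04 in H3K27ac. Over the controls in wild type it was -0.22 in RNA-Pol2, -1.32 in Eed, -1.03 in H3K27me3 and -0.40 in H3K27ac. A promoter was called higher or lower at 2-fold, and the share of all tested promoters and of protein-coding promoters past that size is printed as the background. A call of 2-fold over a control is thus counted from the median promoter, not from the control itself. Intervals are exact 95% Clopper-Pearson intervals of the 2 counts and cover counting error only. Of the 48 windows, 12 overlap the window of another symbol, 8 of them that of a protein-coding gene: Orc1 with Prpf38a, Orc6 with Vps35, Mcm4 with Prkdc, Mcm7 with Ap4m1, Gins1 with Abhd12, Cdk2 with Pmel, E2f4 with Exoc3l and Aurka with Cstf1. The libraries do not assign reads at these windows to one gene or the other.

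Promoter sequences show which of the known cell cycle elements these genes carry. RefSeq (GRCm38.p6) gave a promoter of 300 bases, from 250 before to 50 after the start, for 38 of the 48 genes; the other genes are Ccnd1, Ccnd2, Ccne2, Aurkb, Gins1, Gins2, E2f4, Rb1, Ccna2 and Mcm4. Orc6 is shown for its wild type RNA-Pol2 and H3K27ac, and Cdk4 and E2f8 for H3K27me3 beside H3K27ac. Mcm6 is shown for its E2F matches and Ccnb2 for the elements of mitotic genes. Capitals mark E2F, CHR and CCAAT matches on either strand, and in Cdk4 the palindrome CACGTG, an E box, which was looked for only after its sequence was seen. E2f8, Mcm6 and Ccnb2 were chosen after their values were seen.
Orc6, chr8:85299382-85299681, plus strand: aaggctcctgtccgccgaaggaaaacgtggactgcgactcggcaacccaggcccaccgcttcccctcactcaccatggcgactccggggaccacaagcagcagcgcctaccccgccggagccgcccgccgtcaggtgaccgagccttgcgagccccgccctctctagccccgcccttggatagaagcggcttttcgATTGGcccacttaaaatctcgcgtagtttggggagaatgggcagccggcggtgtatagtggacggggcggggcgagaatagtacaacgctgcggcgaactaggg
Mcm6, chr1:128359656-128359955, minus strand: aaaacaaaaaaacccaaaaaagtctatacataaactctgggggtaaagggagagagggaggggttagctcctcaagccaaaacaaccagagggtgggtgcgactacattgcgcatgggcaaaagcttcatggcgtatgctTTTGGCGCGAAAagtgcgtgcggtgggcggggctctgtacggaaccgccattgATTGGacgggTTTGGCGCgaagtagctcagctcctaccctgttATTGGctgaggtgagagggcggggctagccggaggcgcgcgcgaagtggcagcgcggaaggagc
Cdk4, chr10:127063285-127063584, plus strand: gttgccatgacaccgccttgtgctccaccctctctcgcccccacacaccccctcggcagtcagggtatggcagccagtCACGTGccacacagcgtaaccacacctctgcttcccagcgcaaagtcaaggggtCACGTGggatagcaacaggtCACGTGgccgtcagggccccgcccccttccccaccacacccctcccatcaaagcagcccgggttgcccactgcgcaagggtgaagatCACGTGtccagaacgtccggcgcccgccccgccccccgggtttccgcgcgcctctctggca
E2f8, chr7:48881547-48881846, minus strand: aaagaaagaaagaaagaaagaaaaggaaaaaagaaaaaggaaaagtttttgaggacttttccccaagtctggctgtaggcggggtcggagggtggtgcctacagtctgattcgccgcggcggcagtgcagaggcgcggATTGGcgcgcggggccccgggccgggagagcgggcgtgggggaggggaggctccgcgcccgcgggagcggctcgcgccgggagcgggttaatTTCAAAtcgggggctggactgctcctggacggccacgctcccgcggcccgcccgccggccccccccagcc
Ccnb2, chr9:70421505-70421804, minus strand: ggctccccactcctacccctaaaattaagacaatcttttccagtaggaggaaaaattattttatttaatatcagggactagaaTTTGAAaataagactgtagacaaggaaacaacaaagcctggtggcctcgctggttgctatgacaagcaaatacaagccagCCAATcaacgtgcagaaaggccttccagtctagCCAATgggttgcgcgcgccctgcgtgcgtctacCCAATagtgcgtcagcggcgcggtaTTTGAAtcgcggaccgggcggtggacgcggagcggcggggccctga

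An E2F match, spelled TTTCCCGC, TTTGGCGC, TTTCGCGC or TTTGCCGC, was found in 14 of 38 member promoters (36.8%), against 2.26% of all 32851 promoters and 2.85% of 21263 protein-coding promoters in the same table. It was in 7 of 10 licensing promoters and 4 of 6 promoters of E2F factors and pocket proteins, but in 1 of 8 mitotic and 0 of 4 chromosome and spindle promoters. Mcm6, whose product is a subunit of the MCM helicase, has 3 such matches, 2 of which overlap each other at 110 and 106 bases before the start. The printed E2f8 and Orc6 promoters have none of these spellings, which says only that the letters are not in these windows.

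The cell cycle homology region (CHR), the element of mitotic promoters, was searched as TTTGAA or TTTAAA and was present in 17 of 38 member promoters (44.7%; all promoters 27.6%, protein-coding 25.0%). It was in 7 of 8 mitotic and 4 of 4 chromosome and spindle promoters. CCAAT was present in 29 of 38 (76.3%; 37.4% and 38.2%) and the GC box GGGCGG in 31 of 38 (81.6%; 35.7% and 46.2%). Ccnb2, which encodes a B-type cyclin, carries CCAAT at 87, 54 and 21 bases before the start and CHR matches at 167 bases before and 4 bases after it. Cdk4 carries CACGTG 4 times in its promoter, and 3 of 38 member promoters hold it at all (7.89%), close to the 7.15% of all promoters. The promoters are also rich in CpG: the median ratio of observed to expected CpG was 0.935, against 0.38 over all and 0.57 over protein-coding promoters.

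**Figure D1:**
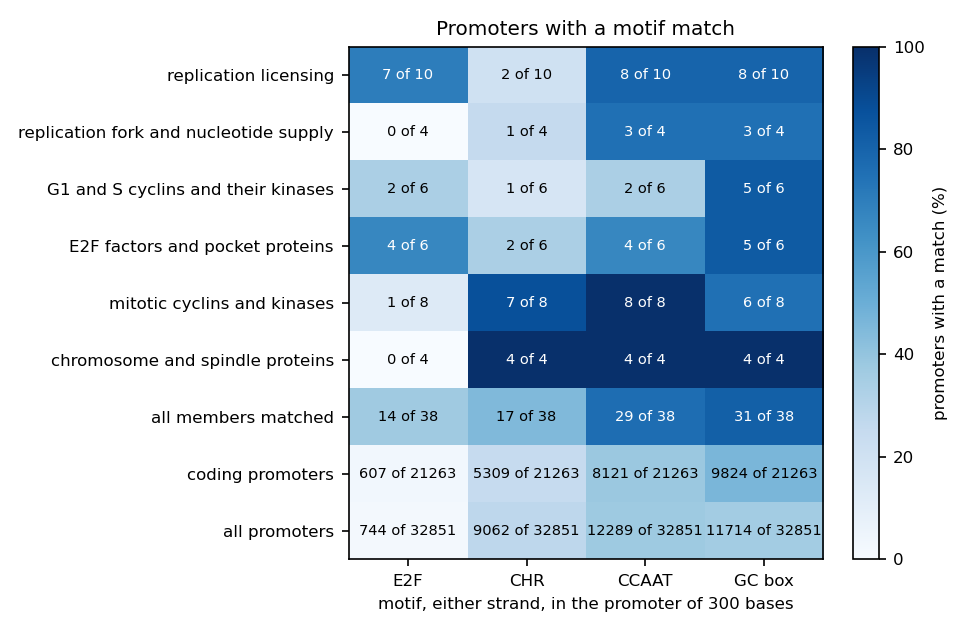
Share of promoters (colour scale, percent; counts in the cells) that hold a match on either strand to each of 4 motifs, by role of the gene, with all matched members, all protein-coding promoters and all promoters below. E2F matches lie mostly in the licensing and E2F rows (7 of 10 and 4 of 6), CHR matches in the mitotic and the chromosome and spindle rows (7 of 8 and 4 of 4).

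In wild type forebrain, the 48 promoters stood above the median promoter in H3K27ac and, less evenly, in RNA-Pol2, Eed and H3K27me3. H3K27ac was at least 2-fold over IgG at 36 of 48 (all tested promoters 23.3%, protein-coding 42.9%), with a median relative log2 ratio of 1.42, and above 0 at all 48, the lowest of which, Bub1b at 0.08, would lie under 0 without taking off the median. RNA-Pol2 was 2-fold over IgG at 23 of 48 (15.3% and 27.3%), with a median of 0.89. Eed was 2-fold over input at 34 of 48 (28.4% and 52.0%), with a median of 1.65 and 45 of 48 above 0. H3K27me3 was 2-fold over IgG at 20 of 48 (19.1% and 33.1%), with a median of 0.92. These counts are relative to the median promoter. Scaled by library totals alone, a setting added after the data were seen, Eed was 2-fold over input at 16 of 48 and above it at 31 (28.6% of protein-coding promoters 2-fold over), and H3K27me3 was 2-fold over IgG at 6 and above it at 17 (13.3%), with a median log2 ratio of -0.12. H3K27ac was then 2-fold over IgG at 25 (30.5%) and RNA-Pol2 at 18 (20.7%).

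**Figure D2:**
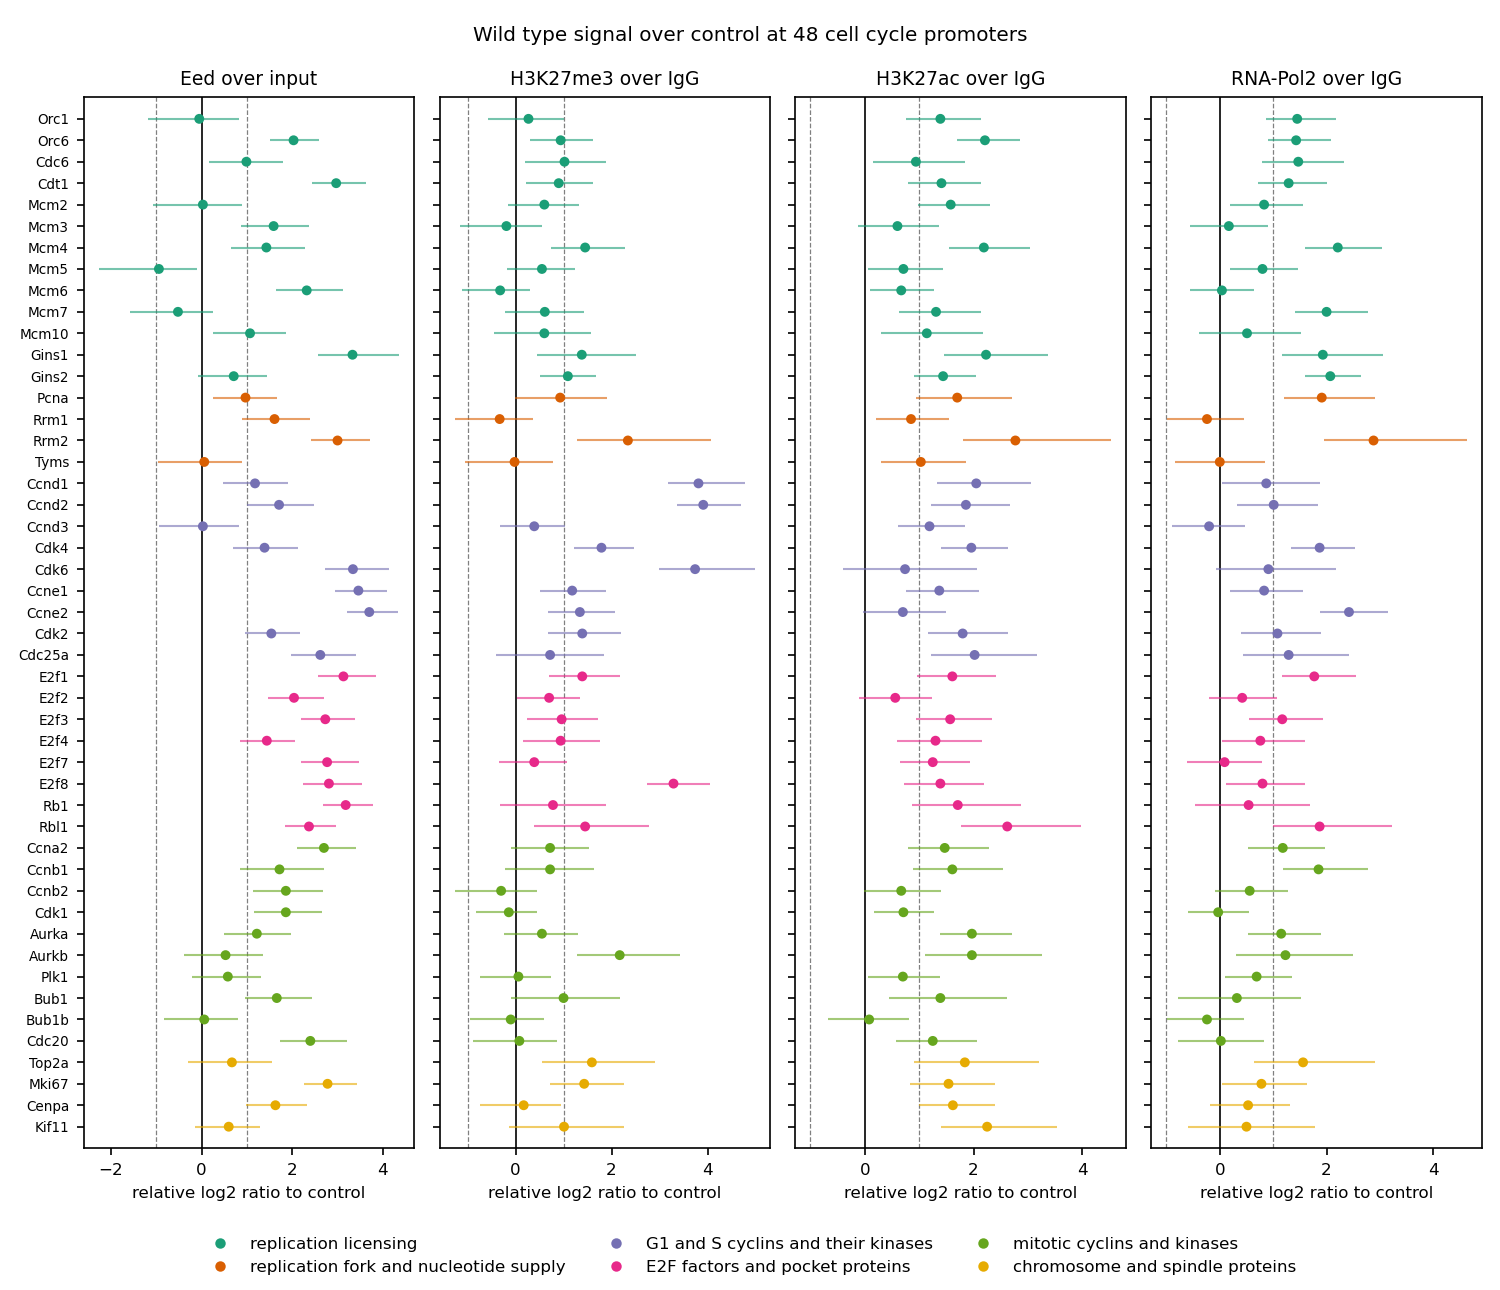
Relative log2 ratio of each wild type library to its control (x axes: Eed to input, the others to IgG; 0 is the median of all tested promoters, dashed lines mark 2-fold) for each of the 48 genes (y axis), coloured by role; lines are exact 95% intervals from counting error. All 48 genes lie above 0 for H3K27ac (Bub1b, at 0.08, not without taking off the median), and Ccnd2, Ccnd1, Cdk6 and E2f8 stand at 3.29 or more for H3K27me3.

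The authors' summit lists, which give 1 position per called peak, were read within 1 kb of the start site. A wild type Eed summit lay at 42 of 48 genes (54.8% of protein-coding promoters), an H3K27ac summit at 13 (21.7%) and an RNA-Pol2 summit at 9 (10.3%). Both H3K27ac and RNA-Pol2 summits were present at 5 genes, Orc6, Cdt1, Mcm4, Gins2 and Cdk4, and neither was called at 31. The share of other promoters with both or with neither was not counted. Genes with no wild type Eed summit were Orc1, Mcm2, Mcm5, Mcm7, Tyms and Bub1b, so that 4 of the 6 were licensing genes. At 40 genes the Eed summit had no H3K27me3 summit within 1 kb, but only 12.7% of protein-coding promoters had an H3K27me3 summit. The share of other promoters with an Eed summit alone was not counted. Ccnd2, E2f8 and Ccnd1 are among the 40, with 366, 258 and 248 H3K27me3 reads and H3K27me3 summits 1070 to 1711 bases upstream.

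Among the licensing genes, which mark origins and load the helicase, wild type reads follow for each library, and EedcKO reads follow in the same order with both histone libraries named as labelled. Orc1, the largest subunit of the origin recognition complex, gave 16 Eed, 33 H3K27me3, 73 H3K27ac, 111 RNA-Pol2, 23 input and 26 IgG reads in wild type and 38, 72, 40, 208, 13 and 30 in EedcKO. Orc6, another subunit of that complex, gave 125 Eed, 65 H3K27me3, 155 H3K27ac, 130 RNA-Pol2, 39 input and 31 IgG reads in wild type and 51, 97, 62, 464, 26 and 45 in EedcKO. Orc6 was the member with the most H3K27ac reads in wild type and the most RNA-Pol2 reads in EedcKO, and its Eed count was far above that of Orc1.

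Cdc6, which loads the helicase together with Cdt1, gave 35 Eed, 42 H3K27me3, 39 H3K27ac, 83 RNA-Pol2, 23 input and 19 IgG reads in wild type and 39, 45, 37, 111, 24 and 44 in EedcKO. Cdt1 gave 181 Eed, 55 H3K27me3, 77 H3K27ac, 103 RNA-Pol2, 29 input and 27 IgG reads in wild type and 47, 35, 57, 144, 26 and 53 in EedcKO. Both had RNA-Pol2 past 2-fold over IgG in wild type, and Eed over input was 2.97 at Cdt1 and 0.99 at Cdc6 on the relative log2 scale. The helicase subunits were uneven in Eed. Mcm2 gave 17 Eed, 44 H3K27me3, 87 H3K27ac, 74 RNA-Pol2, 23 input and 27 IgG reads in wild type and 43, 37, 55, 115, 26 and 26 in EedcKO. Mcm5 gave 11 Eed, 47 H3K27me3, 52 H3K27ac, 80 RNA-Pol2, 31 input and 30 IgG reads in wild type and 32, 57, 22, 147, 18 and 24 in EedcKO, the lowest Eed count of the 48. Mcm7 gave 17 Eed, 36 H3K27me3, 59 H3K27ac, 139 RNA-Pol2, 34 input and 22 IgG reads in wild type and 59, 107, 68, 294, 27 and 34 in EedcKO. Their relative log2 ratios of wild type Eed over input were 0.03, -0.94 and -0.52, at or under the median promoter.

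By contrast, 3 other helicase subunits were past 2-fold for wild type Eed over input, relative to the median promoter. Scaled by library totals alone, Mcm6 held 21.0 RPKM of Eed against 10.3 of input, Mcm3 13.7 against 11.3 and Mcm4 10.6 against 9.82. Mcm3 gave 54 Eed, 24 H3K27me3, 43 H3K27ac, 46 RNA-Pol2, 23 input and 27 IgG reads in wild type and 20, 23, 18, 64, 21 and 31 in EedcKO. Mcm4 gave 42 Eed, 61 H3K27me3, 100 H3K27ac, 147 RNA-Pol2, 20 input and 20 IgG reads in wild type and 41, 99, 56, 346, 17 and 49 in EedcKO. Mcm6 gave 83 Eed, 33 H3K27me3, 67 H3K27ac, 62 RNA-Pol2, 21 input and 40 IgG reads in wild type and 35, 59, 26, 165, 18 and 17 in EedcKO. Mcm4 had the most RNA-Pol2 of the 3, 2.21 over IgG on the relative log2 scale, and Mcm3 and Mcm6 stood at 0.17 and 0.04.

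The GINS subunits travel with the helicase at the fork. Gins1 gave 107 Eed, 35 H3K27me3, 64 H3K27ac, 75 RNA-Pol2, 13 input and 12 IgG reads in wild type and 29, 62, 25, 182, 14 and 33 in EedcKO. Gins2 gave 36 Eed, 86 H3K27me3, 107 H3K27ac, 241 RNA-Pol2, 29 input and 37 IgG reads in wild type and 51, 121, 111, 368, 18 and 81 in EedcKO. Gins2 held the most wild type RNA-Pol2 reads of the 48 genes, and also high IgG counts, 37 in wild type and 81 in EedcKO. The remaining licensing gene, Mcm10, which helps to start the helicase, held 37 Eed, 24 H3K27me3, 36 H3K27ac and 33 RNA-Pol2 reads in wild type.

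At the fork, Pcna encodes the sliding clamp of the DNA polymerases and gave 45 Eed, 31 H3K27me3, 54 H3K27ac, 91 RNA-Pol2, 30 input and 15 IgG reads in wild type and 20, 65, 18, 217, 27 and 38 in EedcKO. Rrm1 and Rrm2 encode the subunits of ribonucleotide reductase, which makes deoxynucleotides. Rrm1 gave 55 Eed, 25 H3K27me3, 59 H3K27ac, 39 RNA-Pol2, 23 input and 31 IgG reads in wild type and 33, 41, 30, 122, 17 and 29 in EedcKO. Rrm2 gave 159 Eed, 38 H3K27me3, 51 H3K27ac, 80 RNA-Pol2, 25 input and 6 IgG reads in wild type and 54, 65, 50, 182, 23 and 35 in EedcKO. Rrm2 had the highest relative log2 ratios over IgG of all 48 genes, 2.77 for H3K27ac and 2.88 for RNA-Pol2, but its wild type IgG count of 6 was the lowest of the 48, so the interval for RNA-Pol2 ran from 1.95 to 4.63. Tyms, the thymidylate synthase gene, had 33 RNA-Pol2 reads in wild type, at the median promoter relative to IgG.

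The D-type cyclins start the G1 phase. Ccnd1 gave 49 Eed, 248 H3K27me3, 69 H3K27ac, 43 RNA-Pol2, 28 input and 15 IgG reads in wild type and 48, 39, 341, 103, 19 and 36 in EedcKO. Ccnd2 gave 59 Eed, 366 H3K27me3, 83 H3K27ac, 66 RNA-Pol2, 23 input and 21 IgG reads in wild type and 51, 55, 543, 166, 22 and 34 in EedcKO. Ccnd3 gave 21 Eed, 46 H3K27me3, 80 H3K27ac, 43 RNA-Pol2, 28 input and 33 IgG reads in wild type and 40, 42, 42, 83, 27 and 46 in EedcKO. Ccnd1 and Ccnd2 had H3K27me3 far above IgG together with H3K27ac above IgG, whereas Ccnd3 had H3K27ac at 1.19 and H3K27me3 at 0.39 on the relative log2 scale. Their partner kinases differed as well. Cdk4 gave 53 Eed, 112 H3K27me3, 122 H3K27ac, 166 RNA-Pol2, 26 input and 29 IgG reads in wild type and 35, 92, 138, 365, 28 and 56 in EedcKO. Cdk6 gave 163 Eed, 164 H3K27me3, 18 H3K27ac, 30 RNA-Pol2, 20 input and 10 IgG reads in wild type and 52, 30, 360, 75, 19 and 14 in EedcKO. Cdk6 had the lowest wild type H3K27ac count of the 48 genes and a high Eed count, and Cdk4 had high H3K27ac with fewer Eed reads. The RefSeq start of Cdk6, however, lies 2408 bases from its window centre, outside the 2 kb counted. That of Cdk4 lies 1 base from its centre. An EedcKO RNA-Pol2 summit lay 2459 bases downstream of the Cdk6 window centre. The part of window placement in the Cdk6 counts was not tested.

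The E-type cyclins activate Cdk2 at the start of S phase. Ccne1 gave 262 Eed, 67 H3K27me3, 75 H3K27ac, 74 RNA-Pol2, 30 input and 27 IgG reads in wild type and 61, 30, 46, 187, 31 and 42 in EedcKO. Ccne2 gave 311 Eed, 70 H3K27me3, 43 H3K27ac, 212 RNA-Pol2, 30 input and 25 IgG reads in wild type and 48, 96, 34, 445, 16 and 57 in EedcKO. They held the highest Eed counts of the 48 genes, with relative log2 ratios over input of 3.46 (95% interval 2.95 to 4.09) and 3.70 (3.20 to 4.33), yet no H3K27me3 summit lay nearer than 21826 and 196631 bases. Ccne2 also stood at 2.42 for RNA-Pol2 over IgG, behind Rrm2 alone. Cdk2 gave 77 Eed, 61 H3K27me3, 80 H3K27ac, 69 RNA-Pol2, 34 input and 21 IgG reads in wild type and 51, 47, 45, 160, 33 and 30 in EedcKO. Cdc25a, the phosphatase that activates Cdk2, gave 103 Eed, 21 H3K27me3, 55 H3K27ac, 47 RNA-Pol2, 21 input and 12 IgG reads in wild type and 43, 48, 31, 136, 26 and 30 in EedcKO. Relative to the median promoter, both had Eed, H3K27ac and RNA-Pol2 past 2-fold over control. Scaled by library totals alone, Eed was 19.5 RPKM against 16.7 of input at Cdk2, and 26.1 against 10.3 at Cdc25a.

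Relative to the median promoter, all 8 E2F factors and pocket proteins were past 2-fold for wild type Eed over input, with a median relative log2 ratio of 2.75. Scaled by library totals alone, E2f4 held 18.8 RPKM of Eed against 17.2 of input and E2f2 24.6 against 14.7. These 2 were then under 2-fold, unlike the others. E2f1, an activating factor, gave 175 Eed, 64 H3K27me3, 73 H3K27ac, 118 RNA-Pol2, 25 input and 22 IgG reads in wild type and 48, 64, 30, 164, 28 and 23 in EedcKO. E2f2, also an activator, gave 97 Eed, 58 H3K27me3, 51 H3K27ac, 67 RNA-Pol2, 30 input and 33 IgG reads in wild type and 49, 26, 60, 156, 21 and 26 in EedcKO. E2f8, an atypical repressor of E2F targets, gave 140 Eed, 258 H3K27me3, 65 H3K27ac, 62 RNA-Pol2, 25 input and 23 IgG reads in wild type and 50, 45, 359, 189, 28 and 42 in EedcKO. Of these 3, E2f8 had strong H3K27me3, and E2f1 had the most RNA-Pol2.

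The pocket proteins bind and silence E2F factors. Rb1, the retinoblastoma gene, gave 230 Eed, 22 H3K27me3, 44 H3K27ac, 27 RNA-Pol2, 32 input and 12 IgG reads in wild type and 51, 30, 14, 123, 22 and 23 in EedcKO. Rbl1, its relative, gave 138 Eed, 28 H3K27me3, 65 H3K27ac, 55 RNA-Pol2, 34 input and 9 IgG reads in wild type and 40, 56, 33, 146, 29 and 31 in EedcKO. Both had high Eed and H3K27me3 under 30 reads. The activator E2f3, the repressor E2f4 and the atypical repressor E2f7 held 74 to 153 Eed reads, 42 to 51 H3K27me3 reads, 56 to 77 H3K27ac reads and 48 to 84 RNA-Pol2 reads in wild type.

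Among the mitotic genes, Ccna2, the cyclin of S phase and mitotic entry, gave 129 Eed, 39 H3K27me3, 66 H3K27ac, 78 RNA-Pol2, 25 input and 22 IgG reads in wild type and 50, 59, 14, 213, 21 and 40 in EedcKO. Ccnb1, the main partner of Cdk1, gave 39 Eed, 30 H3K27me3, 57 H3K27ac, 98 RNA-Pol2, 15 input and 17 IgG reads in wild type and 36, 57, 13, 180, 17 and 24 in EedcKO. Ccnb2 gave 60 Eed, 23 H3K27me3, 47 H3K27ac, 63 RNA-Pol2, 21 input and 28 IgG reads in wild type and 29, 40, 33, 127, 15 and 38 in EedcKO. All 3 cyclins had H3K27ac above IgG and H3K27me3 at most 39 reads. Aurkb, the kinase of the chromosomal passenger complex, gave 26 Eed, 53 H3K27me3, 45 H3K27ac, 38 RNA-Pol2, 24 input and 10 IgG reads in wild type and 38, 26, 43, 95, 21 and 30 in EedcKO. Bub1, a kinase of the spindle checkpoint, gave 57 Eed, 24 H3K27me3, 32 H3K27ac, 21 RNA-Pol2, 23 input and 11 IgG reads in wild type and 37, 14, 4, 50, 23 and 12 in EedcKO. Bub1b, another checkpoint component, gave 24 Eed, 30 H3K27me3, 34 H3K27ac, 39 RNA-Pol2, 31 input and 31 IgG reads in wild type and 30, 37, 22, 84, 17 and 47 in EedcKO. Bub1b lay near the median promoter, with relative log2 ratios over control of 0.06 for Eed, 0.08 for H3K27ac and -0.24 for RNA-Pol2. Scaled by library totals alone, wild type Bub1b held 6.08 RPKM of Eed against 15.2 of input. Its H3K27ac and RNA-Pol2, at 8.74 and 7.86 RPKM, then lay under IgG. Cdk1, Aurka, Plk1 and Cdc20, the remaining mitotic genes, held 34 to 88 Eed reads, 25 to 44 H3K27me3 reads, 55 to 106 H3K27ac reads and 35 to 86 RNA-Pol2 reads.

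The chromosome and spindle proteins were all past 2-fold for H3K27ac over IgG (42.9% of protein-coding promoters). Top2a and Kif11 had only 9 and 10 IgG reads. The 37 H3K27ac reads of Top2a lay under the median of 49 over other protein-coding promoters, and the others held 55 to 80. Top2a, the topoisomerase that untangles sister chromatids, gave 24 Eed, 31 H3K27me3, 37 H3K27ac, 44 RNA-Pol2, 20 input and 9 IgG reads in wild type and 34, 42, 21, 118, 19 and 33 in EedcKO. Mki67, the gene of the proliferation marker Ki-67, gave 169 Eed, 60 H3K27me3, 63 H3K27ac, 53 RNA-Pol2, 31 input and 20 IgG reads in wild type and 52, 41, 63, 199, 21 and 41 in EedcKO. Kif11, a motor of the bipolar spindle, gave 38 Eed, 22 H3K27me3, 55 H3K27ac, 22 RNA-Pol2, 33 input and 10 IgG reads in wild type and 31, 19, 14, 106, 10 and 22 in EedcKO. Mki67 had high Eed, and Kif11 had H3K27ac with few RNA-Pol2 reads in wild type. Cenpa, the histone H3 variant of centromeres, held 70 Eed, 28 H3K27me3, 80 H3K27ac and 53 RNA-Pol2 reads.

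Wild type Eed was only weakly correlated with wild type H3K27ac, RNA-Pol2 and H3K27me3. Across the 48 genes, the Pearson correlation of log2 RPKM, given as a description, was 0.0375 between Eed and H3K27ac, 0.0543 between Eed and RNA-Pol2 and 0.206 between Eed and H3K27me3, against 0.566 between H3K27ac and RNA-Pol2. Its correlation with promoter GC content was 0.574 over the 37 genes with a RefSeq start near the window centre, and 0.724 over 14479 other protein-coding promoters, where input gave 0.216 and 0.409. The other wild type libraries also rose with GC content at the 37 genes, at 0.414 in RNA-Pol2, 0.548 in H3K27me3 and 0.421 in H3K27ac, as did EedcKO Eed, at 0.42. The part of base composition in the Eed signal was not tested. Eed and the other libraries were also made by different assays.

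Wild type H3K27me3 was strong at few of these genes. At least 100 reads, a limit chosen after the data were seen, were present at 5 of 48: Ccnd2 with 366, E2f8 with 258, Ccnd1 with 248, Cdk6 with 164 and Cdk4 with 112. Of 21230 protein-coding promoters, 14.2% held as many. Just under the limit came Gins2 with 86, Ccne2 with 70 and Ccne1 with 67. An H3K27me3 summit lay within 1 kb at 2 genes, Cdk6 at 150 bases and Cdk4 at 46 bases (12.7% of protein-coding promoters), and just outside at E2f8, Ccnd2 and Ccnd1, at 1070, 1522 and 1711 bases upstream. Of the 5 genes, 4 are D-type cyclins or their kinases, and E2f8 is a repressor of E2F targets.

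The 2-fold rule over IgG added 15 genes with neither a summit nor 100 reads. Rrm2, Aurkb, Top2a, Rbl1, Gins1, Kif11 and Bub1 among them had 6 to 12 IgG reads in wild type, and their H3K27me3 counts of 22 to 53 were near the median of 37 over the other protein-coding promoters. Ccne1, Ccne2, Cdk2, E2f1, Mki67, Mcm4, Gins2 and Cdc6 held 42 to 86. Licensing and mitotic genes had medians of 42 and 32.5 H3K27me3 reads, with no summit.

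At 4 of the 5 genes with at least 100 H3K27me3 reads, H3K27ac was also past 2-fold over IgG, relative to the median promoter (42.9% of protein-coding promoters). A wild type H3K27ac summit lay within 1 kb at Ccnd2 and Cdk4, but not at Ccnd1, E2f8 or Cdk6. Relative log2 ratios of H3K27ac over IgG were 2.05 at Ccnd1, 1.96 at Cdk4, 1.86 at Ccnd2 and 1.39 at E2f8, and 0.74 at Cdk6 with an interval from -0.41 to 2.06. The Cdk6 window does not hold the RefSeq start of that gene. As a group the 5 had a median of 69 H3K27ac and 62 RNA-Pol2 reads, against 59 and 68 at the other 43.

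At the 48 promoters, the library labelled EedcKO H3K27ac was more like wild type H3K27me3 than like wild type H3K27ac. Whether labels were exchanged or the marks changed with the genotype was not tested. The library labelled EedcKO H3K27ac held 543 reads at Ccnd2, 360 at Cdk6, 359 at E2f8, 341 at Ccnd1 and 138 at Cdk4, and at most 111 at the other 43. The library labelled EedcKO H3K27me3 held 55, 30, 45, 39 and 92 at the same genes and 14 to 121 elsewhere. Over the 48 genes, the Pearson correlation of log2 RPKM between the library labelled EedcKO H3K27ac and wild type H3K27me3 was 0.9, and that with wild type H3K27ac was 0.221. For the library labelled EedcKO H3K27me3 the wild type library most like it was RNA-Pol2, at 0.86, with H3K27ac at 0.548 and H3K27me3 at 0.265. Without the 5 genes, these values of the library labelled EedcKO H3K27ac were 0.683 and 0.542. Those of the library labelled EedcKO H3K27me3 were then 0.853 with RNA-Pol2, 0.528 with H3K27ac and 0.499 with H3K27me3, so that it was about as like one wild type histone library as the other. Calls in the histone marks between the genotypes are therefore given as labelled and with the other label.

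**Figure D3:**
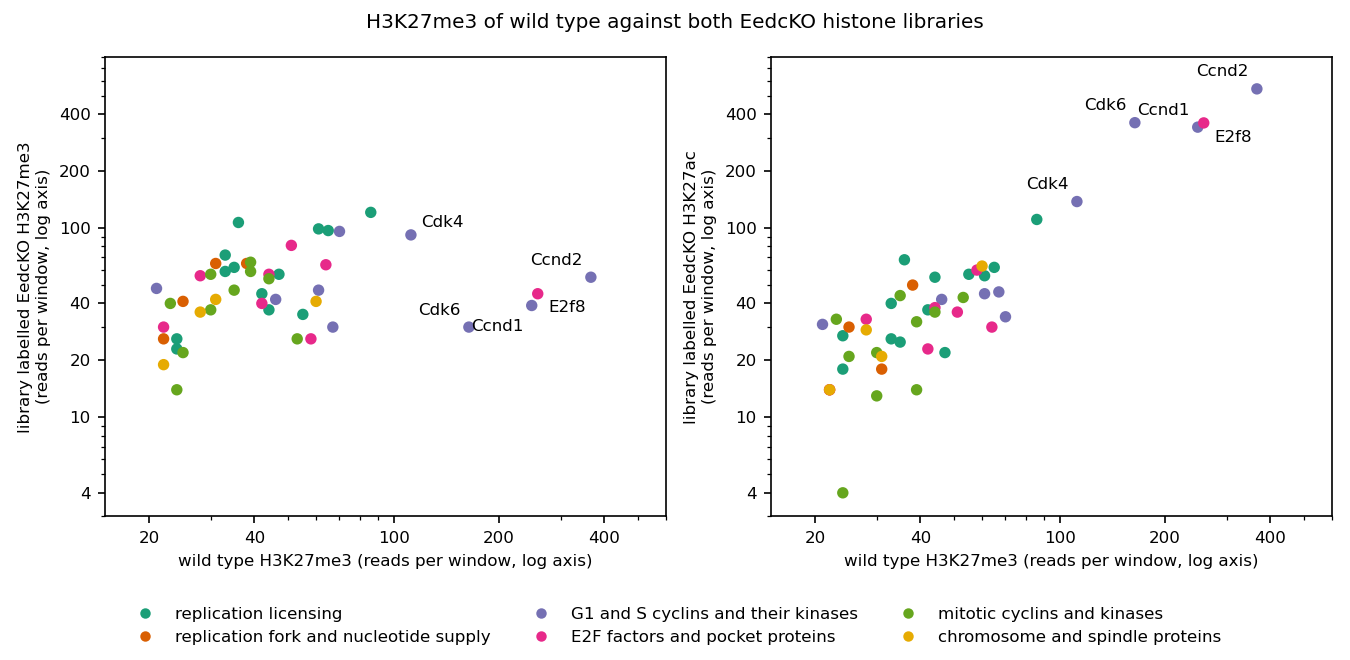
Reads per promoter window of wild type H3K27me3 (x axes, log scale) against the library labelled EedcKO H3K27me3 (left y axis, log scale) and the library labelled EedcKO H3K27ac (right y axis, log scale), 1 point per gene, coloured by role. Ccnd2, E2f8, Ccnd1 and Cdk6 rank high on both axes at the right, with 341 reads or more, and not at the left, with 55 or fewer.

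As labelled, H3K27me3 fell at least 2-fold in EedcKO at 6 of 48 genes (13.0% of all tested promoters, and 3608 of 20013 protein-coding ones) and rose at 4 (6.81% and 8.11%), with a median relative log2 ratio of 0.29. Scaled by library totals alone it rose at 27, with a median of 1.14, and with IgG taken off at 22. The lowest were Ccnd2 at -2.65 (95% interval -3.12 to -2.27), Ccnd1 at -2.57 (-3.14 to -2.12), E2f8 at -2.43 (-2.96 to -2.00) and Cdk6 at -2.35 (-3.01 to -1.83), followed by Ccne1 and E2f2 at -1.09. Cdk4 stood at -0.24 (-0.64 to 0.18). The 4 higher genes were Mcm7 at 1.53, Cdc25a at 1.09, Orc1 at 1.08 and Pcna at 1.02, of which Mcm7 and Orc1 overlap the window of a protein-coding gene and Pcna that of another symbol, AV099323. With the library of the other histone label in its place, the directions of the lowest 4 turned: Ccnd2 stood at 0.66 (0.47 to 0.86), Ccnd1 at 0.55 (0.31 to 0.79), E2f8 at 0.56 (0.33 to 0.80) and Cdk6 at 1.21 (0.95 to 1.5), with 1 gene higher, 2 lower and a median of -0.075. The direction of H3K27me3 at these 4 genes therefore turns with the label.

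As labelled, H3K27ac fell at 15 of 48 (all tested promoters 11.7%, protein-coding 18.3%) and rose at 4 (18.2% and 20.7%), with a median of -0.63. The count of falls moved with the processing, to 36 when scaled by library totals alone, 43 with IgG taken off and 6 at a minimum of 5 RPKM. The 4 higher genes were Cdk6 at 4.32 (3.78 to 5.23), Ccnd2 at 2.82, E2f8 at 2.57 and Ccnd1 at 2.42, the genes with the most wild type H3K27me3. The lowest were Bub1 at -2.02 (-4.82 to -1.37), Ccna2 at -1.81 (-3.05 to -1.25) and Ccnb1 at -1.69 (-2.99 to -1.11), where 4, 14 and 13 reads were left. With the library of the other label in its place, 1 gene was higher, 7 were lower and the median was -0.34. Bub1 then stood at -1.02, Ccnd1, Ccnd2 and E2f8 at -0.71, -0.49 and -0.43, and Ccnb1 at 0.08. Cdk6 kept its direction, at 0.76 (-0.06 to 1.76), an interval that includes 0. Summits lay within 1 kb of 3 genes in each of these libraries: Cdk4, Cdk6 and E2f8 in the one labelled H3K27ac (11.4% of protein-coding promoters), and Mcm7, Gins1 and Pcna in the one labelled H3K27me3 (2.5%).

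Eed was lower in EedcKO at 29 of 48 genes (all tested promoters 30.0%, protein-coding 48.2%) and higher at 1 (22.6% and 16.4%), with a median relative log2 ratio of -1.13 against -0.91 over protein-coding promoters. All 8 E2F factors and pocket proteins fell relative to the median promoter, by 1.40 at E2f2 to 2.58 at Rb1 on the log2 scale. Their median was -2.04. Scaled by library totals alone, E2f2 went from 24.6 to 16.9 RPKM and E2f4 from 18.8 to 12.4. These falls were under 2-fold. The lowest of all were Ccne2 at -3.09 (95% interval -3.60 to -2.69), Rb1 at -2.58 (-3.07 to -2.16) and Ccne1 at -2.51 (-2.96 to -2.13): Ccne2 went from 311 to 48 reads. The gene called higher was Mcm7, at 1.24 (0.56 to 2.23), from 17 to 59 reads. Mcm5 stood at 0.93 and Mcm2 at 0.80. In EedcKO the counts of the 48 genes ran from 20 to 71, a far narrower range than the 11 to 311 of wild type.

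In the EedcKO Eed library, 3 of 48 genes were at least 2-fold over input (all tested promoters 5.16%, protein-coding 7.55%), and summits lay within 1 kb of 9 (16.0%): Cdk6, E2f7, E2f8, Rb1, Cdk1, Aurka, Plk1, Top2a and Mki67. By role, Eed fell at 6 of 13 licensing, 3 of 4 fork, 6 of 9 G1 and S, 4 of 10 mitotic and 2 of 4 chromosome and spindle genes. Input was 2-fold higher at 0 genes (3.33% and 2.36%) and lower at 1 (2.5% and 2.24%), Kif11, from 33 to 10 reads, with a median of -0.15. Without taking off the median of all promoters, which moved by 0.88, Eed was lower at 13 genes and higher at 7.

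RNA-Pol2 was higher in EedcKO at 24 of 48 genes (all tested promoters 12.2%, protein-coding 22.7%) and lower at 0 (7.86% and 4.18%), with a median relative log2 ratio of 1.0 against 0.48 over protein-coding promoters. All 48 genes were above the median promoter, from 0.21 to 1.95, and 42 were above 0 when scaled by library totals alone. The 3 highest were Kif11 at 1.95 (95% interval 1.38 to 2.78), from 22 to 106 reads, Rb1 at 1.89 (1.36 to 2.63), from 27 to 123, and Mki67 at 1.65 (1.25 to 2.16), from 53 to 199. The lowest were Cdc6 at 0.21 (-0.22 to 0.63), E2f1 at 0.26 (-0.09 to 0.61), and Cdt1 and Mcm3 at 0.27, whose intervals include 0.

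By role, RNA-Pol2 rose at 4 of 13 licensing genes (median 0.65), 2 of 4 fork genes (0.99), 5 of 9 G1 and S genes (1.01), 6 of 8 E2F and pocket genes (1.17), 4 of 10 mitotic genes (0.93) and 3 of 4 chromosome and spindle genes (1.41). These calls are relative to the median promoter (22.7% of protein-coding promoters). Only 4 of the 24 calls held when scaled by library totals alone. Orc6, at 1.60 with 130 and 464 reads, led the licensing genes, Rrm1 the fork genes at 1.38, Cdc25a the G1 and S genes at 1.28 and Cdc20, which activates the anaphase promoting complex, the mitotic genes at 1.35. The order of the genes stayed close to that in wild type, with a correlation of 0.86 between the genotypes. The 5 genes with 100 or more wild type H3K27me3 reads had a median of 1.06, and the other 43 a median of 0.98.

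Over IgG of the same genotype, RNA-Pol2 was 2-fold higher at 36 of 48 genes in EedcKO (all tested promoters 23.4%, protein-coding 42.1%). EedcKO summits lay within 1 kb of 37 genes (40.3% of protein-coding promoters), against 9 in wild type (10.3%). The share thus rose over all protein-coding promoters as well. The EedcKO list held 25930 RNA-Pol2 summits and the wild type list 3716. All 9 wild type genes were among the 37. The EedcKO library was also the deeper one, with 3842779 promoter reads against 2482297. IgG moved in the same direction: it was 2-fold higher in EedcKO at 11 of 48 (7.33% and 11.6%) with a median of 0.55 and 40 genes above 0, and its part in the RNA-Pol2 ratio was not tested. Across the genes the correlation of both ratios was 0.138, and that of RNA-Pol2 and IgG levels within EedcKO was 0.5. Scaled by library totals alone, 4 genes were called, and with IgG taken off 35 of 48 were above 0 and 4 were lower.

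**Figure D4:**
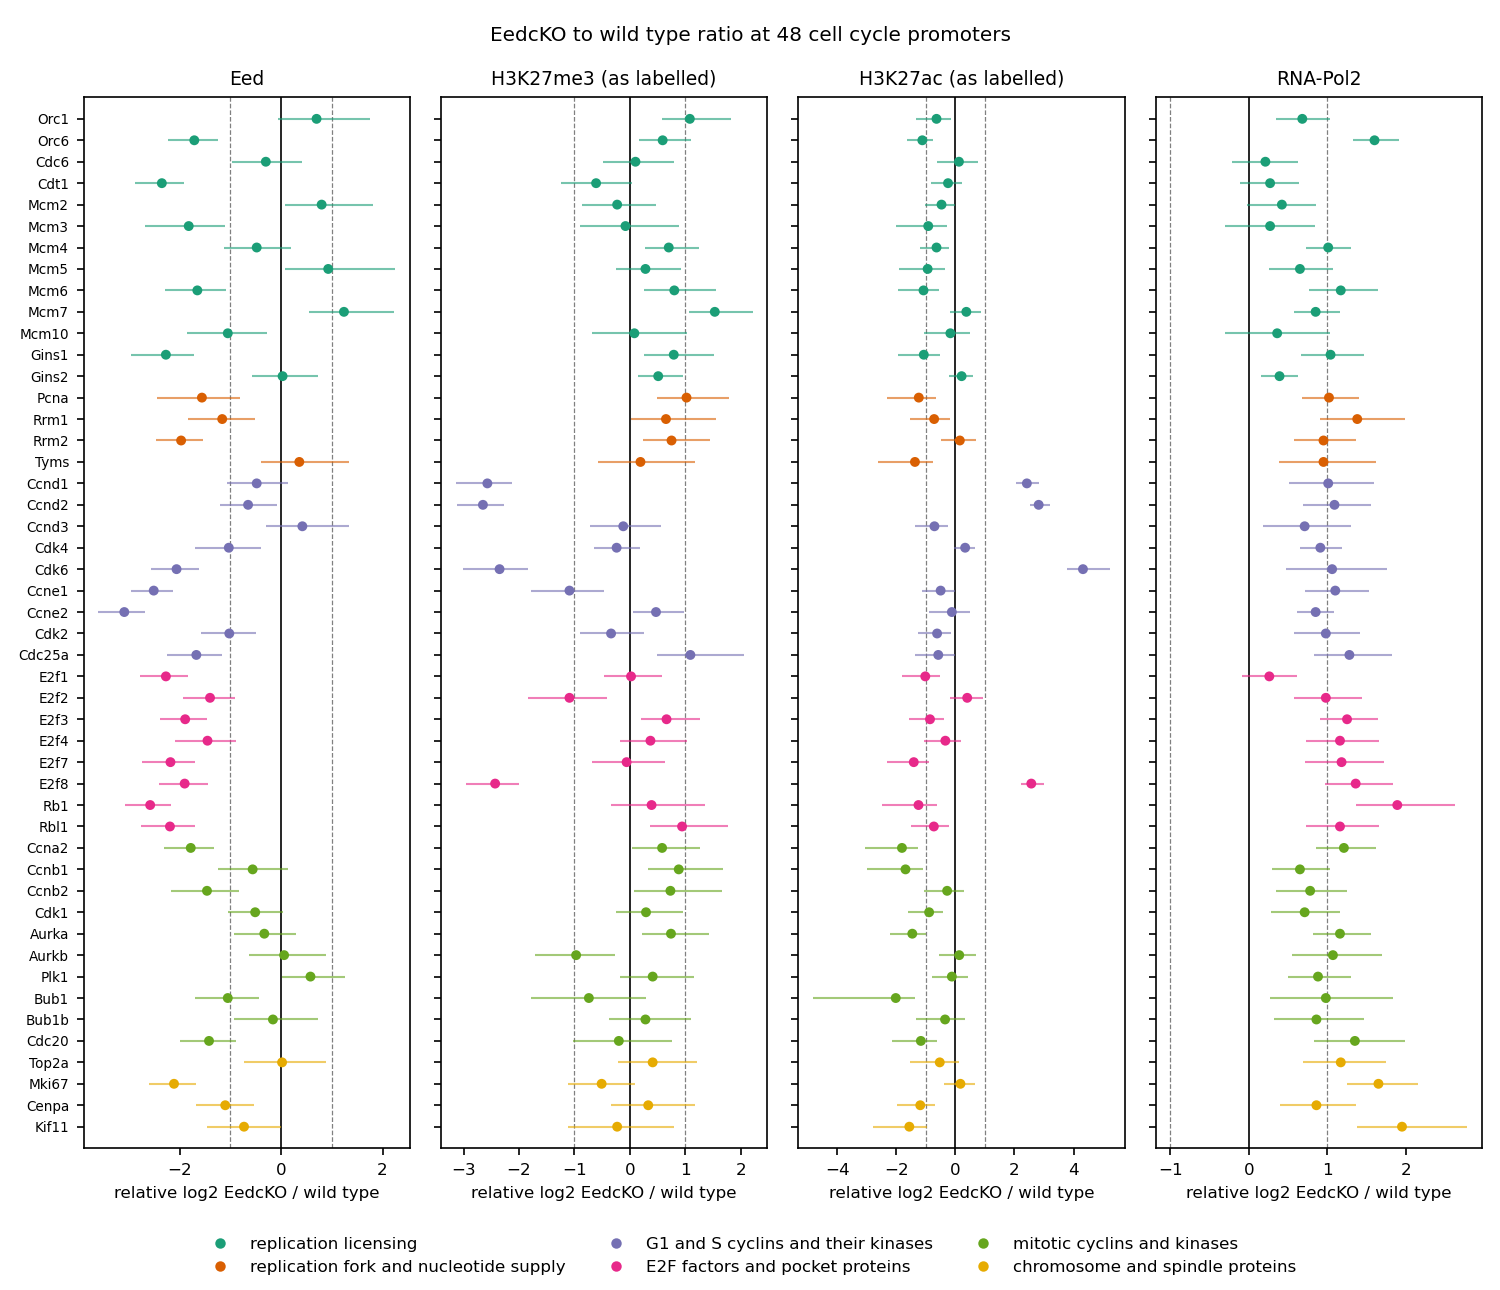
Relative log2 ratio of EedcKO to wild type (x axes; 0 is the median of all tested promoters, dashed lines mark 2-fold) in Eed, both histone marks as labelled and RNA-Pol2 for each of the 48 genes (y axis), coloured by role; lines are exact 95% intervals from counting error. All 48 genes lie above 0 for RNA-Pol2 (42 when scaled by library totals alone). All 8 E2F factors and pocket proteins lie past 2-fold lower for Eed (E2f2 and E2f4 not when scaled by library totals alone). Ccnd1, Ccnd2, Cdk6 and E2f8 stand apart in both histone panels.

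To place these values, a class of other active promoters was set beside them. It holds 4600 other protein-coding promoters with a wild type H3K27ac summit within 1 kb and was chosen after the data were seen. Among these, 52.2% were 2-fold higher in RNA-Pol2, with a median of 1.02 and 98.8% above 0, where 50.0% of the cell cycle genes were called, with a median of 1.0 and all 48 above 0 (42 when scaled by library totals alone). Eed was lower at 71.3% of them with a median of -1.65, against 60.4% and -1.13. IgG was higher at 23.1% with a median of 0.56, against 22.9% and 0.55. Of the 48 genes, 13 have such a summit themselves: RNA-Pol2 was higher at 7 of the 13, with a median of 1.01, and Eed lower at 8, with a median of -1.03.

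**Figure D5:**
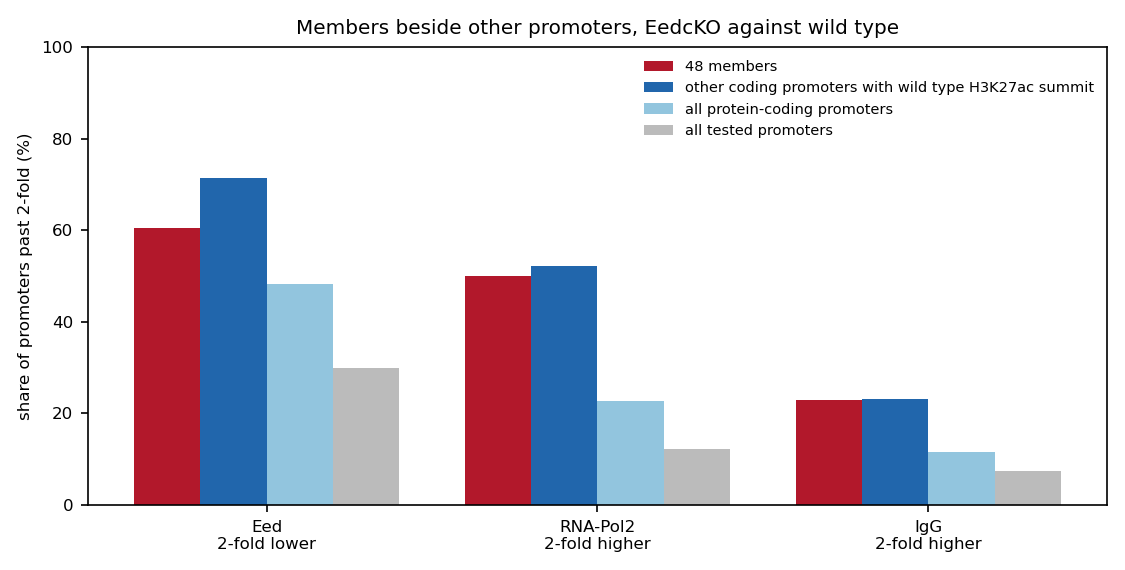
Share of promoters past 2-fold between EedcKO and wild type (y axis, percent) in the direction named under each group of bars, for the 48 cell cycle genes (13 of which have a wild type H3K27ac summit), other protein-coding promoters with such a summit, all protein-coding promoters and all tested promoters. For RNA-Pol2 and IgG the first 2 bars are close (50.0% and 52.2%, 22.9% and 23.1%), and both lie above those of all protein-coding promoters.

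Further genes of the pathway were described from 3 lists. Of 40 other replication genes, H3K27ac was 2-fold over IgG at 28 in wild type, Eed fell at 28 and rose at 2 in EedcKO, and RNA-Pol2 rose at 10 with a median of 0.86. Of 49 other mitosis genes, H3K27ac was over IgG at 34, Eed fell at 20 and rose at 3, and RNA-Pol2 rose at 15 with a median of 0.80. Of 25 other cell cycle regulators, H3K27ac was over IgG at 18, Eed fell at 15 and rose at 3, and RNA-Pol2 rose at 5 of the 24 tested with a median of 0.82. RNA-Pol2 fell at 0 genes of the 3 lists. The shares called higher in RNA-Pol2 at 2-fold were 25.0%, 30.6% and 20.8%. They lay nearer to the 22.7% of all protein-coding promoters than to the 50.0% of the 48 genes. The medians of the lists, in contrast, lay nearer to the 1.0 of the 48 genes than to the 0.48 of protein-coding promoters. Above 0 were 97.5% of the replication genes, 98.0% of the mitosis genes and all 24 tested regulators, against 70.0% of protein-coding promoters. Eed fell at 70.0% of the replication and 40.8% of the mitosis genes, against 48.2% of protein-coding promoters, and H3K27ac was over IgG at 70.0%, 69.4% and 72.0% of the 3 lists, against 42.9%.

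Of the 114 genes in these lists, 4 (3.51%) held at least 100 wild type H3K27me3 reads, against 14.2% of protein-coding promoters. They were Pole, a replicative polymerase subunit, with 127, Bub3, a checkpoint protein, with 329, and Fzr1, an activator of the anaphase promoting complex, and Ccna1, the cyclin A of germ cells, with 126 and 100. Bub3 followed the pattern of Ccnd1 and Ccnd2, with 47 reads in the library labelled EedcKO H3K27me3 and 395 in that labelled EedcKO H3K27ac.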

How the data were processed

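Forebrain chromatin of wild type and EedcKO embryos was measured in 12 libraries, 1 for each genotype and target, so libraries were grouped by genotype and target and no test was run. Per the submitters' processing notes, ChIPseeker 1.22.1, deepTools 3.4.0, MACS2 2.2.7.1 and Bowtie2 2.4.1 were used with build mm10; the sources used here do not give mapping or duplicate filters. The deposited promoter tables, which the authors named for RPKM, hold whole-number counts for 55385 windows, and all but 2 windows span 2 kb; they were treated as counts. The deposited summit lists hold a score of each summit, the authors' own, on the −log10 scale (p-value or q-value, not stated which), which served here as a filter inside each list. For 27 windows of the library labelled EedcKO H3K27ac the symbol reads as a date, and symbols came from the other libraries.

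Counts were scaled to RPKM by each library's total over promoter windows, with a pseudocount of 0.5 RPKM and a minimum mean of 1 RPKM over both libraries, which all 48 genes passed in every comparison. The pseudocount shrinks ratios of promoters with few reads. Of the symbols, 38896 matched RefSeq GRCm38.p6, which gave 21230 protein-coding promoters. The members and all lists were chosen with earlier results of these data known. Genes given in every library were those with wild type H3K27me3 by either rule, the 3 highest and 3 lowest by each ratio, and the first of each role; Orc6 was added. Python 3.11.15, pandas 2.3.3, NumPy 2.4.6, SciPy 1.17.1 and matplotlib 3.10.9 were used, and the ratio script was tested on simulated data. No molecular identifiers were counted, so reads need not be separate molecules and intervals cover counting error only. Alternatives covered scaling, the pseudocount, the filter, control subtraction, summit distance and score, and the exchanged histone label.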

Additional observations from a re-analysis of the deposited data

How the results depend on the processing

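All values are relative log2 ratios of EedcKO to wild type, or counts among the 48 genes. With no shift by the median promoter, the median was -0.25 for Eed (7 genes higher, 13 lower), 1.14 for H3K27me3 (27 higher), -1.66 for H3K27ac (36 lower) and 0.58 for RNA-Pol2 (4 higher). With no such shift over the controls in wild type, a setting added after the data were seen, 16 genes were 2-fold over input in Eed and 6 over IgG in H3K27me3. With controls subtracted the median between genotypes was -0.55 for Eed (16 higher), 0.79 for H3K27me3 (22 higher), -4.04 for H3K27ac (43 lower) and 0.50 for RNA-Pol2 (4 lower), and Ccnd1 turned to -0.68 in RNA-Pol2. A pseudocount of 2 RPKM gave 2 genes higher in H3K27me3 and a median of 0.85 in RNA-Pol2. At a minimum of 5 RPKM, 6 genes were lower in H3K27ac, and RNA-Pol2 had a median of 0.76 with 9 higher. Without a filter, 2 genes were higher in Eed. With the other histone label, H3K27me3 had 1 higher and 2 lower, with Ccnd1 at 0.55, Ccnd2 at 0.66, Cdk6 at 1.21 and E2f8 at 0.56, and H3K27ac had 1 higher and 7 lower, with Ccnb1 at 0.08, Ccnd1 at -0.71, Ccnd2 at -0.49 and E2f8 at -0.43. Summits were at 5 genes within 2 kb for wild type H3K27me3, and within 500 bases at 5 for EedcKO Eed and 1 for the library labelled EedcKO H3K27me3, which also had 1 with the upper 50% of scores. The cause of these differences was not tested.

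Among the settings and summaries, 113 values kept their size within the limits used and 33 moved. Of the values of single genes, 256 kept their size, 54 moved and 9 reversed. No paired analysis was possible because each genotype and target has 1 library. Windows with few reads limit precision: the interval of Bub1 in H3K27ac as labelled ran from -4.82 to -1.37.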
